A study of Mus musculus with 2 samples.

Results

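The cytochrome P450 (Cyp) genes encode heme enzymes that add oxygen to steroids, bile acids, vitamins, fatty acids and foreign compounds. Their positions were examined in a map of CTCF binding sites from mouse limb. The members were the protein-coding genes of GENCODE M21 (build mm10) with a symbol made of Cyp, a number, a letter and a number. They came to 92 of 21938 protein-coding genes on the main chromosomes and lay on 13 chromosomes. A gene with another member within 100 kb was called clustered (68 genes in 16 clusters), and the other 24 were called single. Chromatin immunoprecipitation with sequencing (ChIP-seq) for CTCF had been done on limbs of B6NCrl mouse embryos at embryonic day 14.5. The 2 libraries form 1 group with no treatment, and the labels trace both to a single pool of pulverised limbs from male and female embryos. The spread between them may therefore be technical. With no second group, no contrast between conditions exists, and the values below are descriptions of genes and sites set beside the same values over all protein-coding genes.

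CTCF is a zinc finger protein that binds a long, directional DNA motif. It stops the loop-extruding complex cohesin, so that sites whose motifs point towards each other often anchor chromatin loops, and it can keep enhancers from acting across a boundary. Many Cyp genes arose by repeated tandem duplication and sit in arrays of close relatives used mainly in liver. Enzymes of hormone and vitamin metabolism are mostly encoded by single genes, while Cyp26a1 and Cyp26c1 of retinoid metabolism are neighbours. In the limb bud, breakdown of retinoic acid by the Cyp26 enzymes is known to help pattern the proximal to distal axis. The lists hold no expression values, so neither the activity of these genes nor limb marker expression could be checked.

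A binding site is given by its summit, the base of highest signal in a peak. The main list was the deposited optimal list of 49970 peaks (49959 on the main chromosomes), and the signal is the authors' value per peak, with a median of 58.4 and a range from 5.14 to 597.2 over that list. Values from the separate list of each library follow as replicate 1 and replicate 2, each on its own scale. Of the 203 optimal peaks within 50 kb of a Cyp gene, 96.1% had a summit within 100 bp in both replicate lists, against 97.5% of all optimal peaks. Read depth is unknown, because the lists hold no read counts.

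Cyp genes had fewer CTCF sites near them than protein-coding genes in general, and the shortfall lay in the clustered genes. A summit stood within 1 kb of the first transcription start site (TSS) at 9 of 92 Cyp genes (9.78%), against a background of 26.1% of protein-coding genes. Counting every annotated TSS, 16 Cyp genes (17.4%) had one, against 33.4%. A gene with more annotated starts has more places to be counted. The median number of starts was 2 per Cyp gene and 3 per protein-coding gene. No summit lay within 50 kb of the gene for 32 Cyp genes (34.8%), against 14.0%. The median Cyp gene had 2 summits within 50 kb and the median protein-coding gene had 5.

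The split by arrangement was wide. Of the clustered genes, 2 of 68 (2.94%) had a summit at the first TSS, 6 (8.82%) at any TSS, and 31 (45.6%) had none within 50 kb. Of the single genes, 7 of 24 (29.2%) had one at the first TSS, 10 (41.7%) at any TSS, and 1 (4.17%) had none within 50 kb. That gene was Cyp4a29, which lay among other Cyp4a genes. The coding genes Cyp4a12a, Cyp4a12b and Cyp4a30b of the same stretch are left out by the symbol rule and did not enter the cluster call. The median number of summits per 100 kb of gene plus flanks was 0.71 for clustered genes, 4.03 for single genes and 3.30 for all protein-coding genes. Clustered genes were below all genes in this density and in both shares with a summit. Single genes were above all genes in the same values, but not with a cluster distance of 50 kb, where the genes called single had 28.2% at any TSS and 2.35 summits per 100 kb. The exact 95% interval of the share at any TSS was 22.1% to 63.4% for single genes, which held the value of all genes, and 3.31% to 18.2% for clustered genes, which did not. Clustered genes share windows and sites with their neighbours and are not independent observations.

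**Figure D1:**
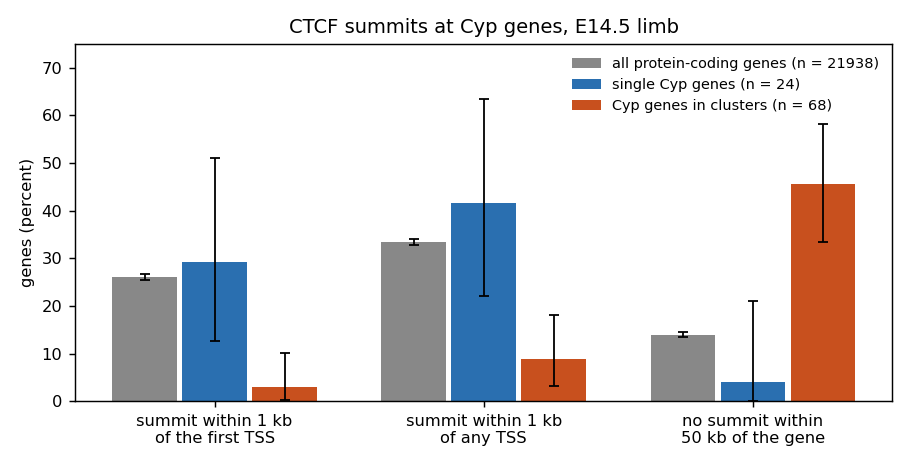
Percent of genes (vertical axis) with an optimal CTCF summit within 1 kb of the first TSS, within 1 kb of any TSS, or with none within 50 kb, for all protein-coding genes, single Cyp genes and clustered Cyp genes. Bars are shares and error bars exact 95% binomial intervals, which cover counting error over genes that are not independent; clustered genes are lowest in the first 2 sets of bars and highest in the third, at 45.6%.

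The cluster threshold divides some close relatives. The widest spacing inside a cluster was 98.2 kb, between Cyp2d9 and Cyp2d12, and the narrowest spacing left outside was 105.6 kb, between Cyp2c69 and Cyp2c37. Cyp4x1 and Cyp4a29 lay 107.8 kb apart and so both counted as single. At promoters, the farthest summit still counted at a first TSS was 836 bp from that of Cyp21a1, and the nearest one left out was 1091 bp from that of Cyp2w1.

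Subfamilies differed among themselves. No summit lay within 50 kb for 12 of 15 Cyp2c genes, 5 of 7 Cyp3a genes, and 6 of 7 genes of the Cyp4a, Cyp4b and Cyp4x subfamilies. The same held for 7 of 13 genes of the Cyp2a, Cyp2b, Cyp2f, Cyp2g, Cyp2s and Cyp2t subfamilies on chromosome 7, and for 2 of 8 Cyp2d genes. By contrast, each of 8 Cyp2j genes (median 1 summit) and each of 9 Cyp4f genes (median 5) had at least 1. In order of symbol, the first 5 members without a summit within 50 kb were Cyp2a12, Cyp2a22, Cyp2a4, Cyp2a5 and Cyp2b13. The highest numbers were at Cyp24a1 (11 summits), at Cyp2w1, Cyp39a1 and Cyp46a1 (10 each), and at Cyp1a2 and Cyp2s1 (9 each).

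**Figure D2:**
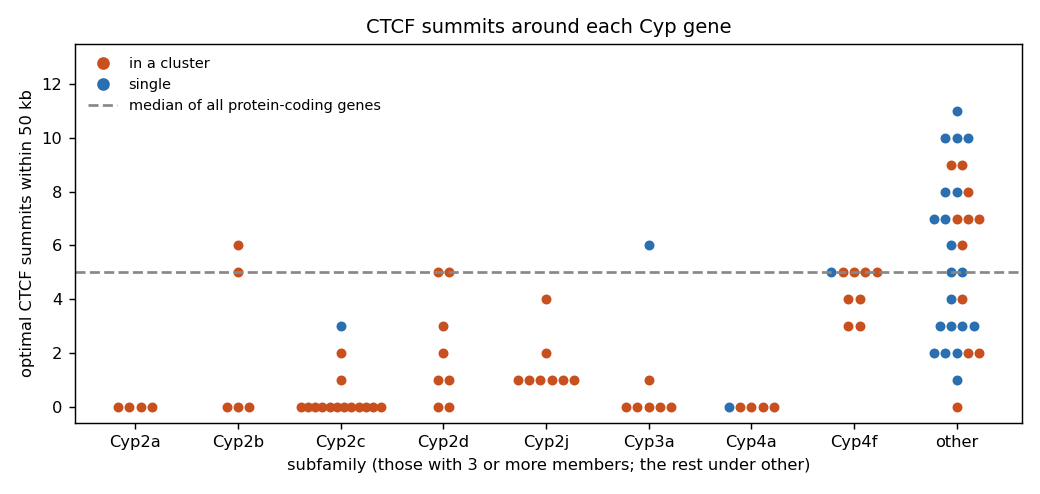
Number of optimal CTCF summits within 50 kb (vertical axis) of each of the 92 Cyp genes, by subfamily. Each point is 1 gene, coloured by arrangement, and the dashed line is the median of all protein-coding genes (5); most Cyp2c, Cyp3a and Cyp4a genes lie at 0, and Cyp4f genes lie between 3 and 5.

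Retinoic acid and vitamin D levels are set in part by Cyp genes. Cyp26a1 and Cyp26c1 degrade retinoic acid and are neighbours on chromosome 19. Each had 7 summits within 50 kb, and 4 summits lay within the 15.96 kb that the pair spans. Cyp26a1 was the 1 member with a pair of summits at its first TSS. Both were weak. The one 112 bp upstream had a pooled signal of 18.4 and 11.6 in replicate 2, and the one 88 bp downstream, in the 5′ untranslated region, had 8.45 and 8.69 in replicate 2. Neither had a summit within 100 bp in the replicate 1 list, so within that distance both were matched in 1 library only. Cyp26c1 had none within 1 kb of its TSS but carried 2 in coding sequence, with pooled signals of 76.5 (35.5 in replicate 1, 42.9 in replicate 2) and 52.1 (21.1 and 30.6). A stronger site stood 2.56 kb past the end of Cyp26a1, with 265.8 (136.2 and 125.9; 131.1 ± 7.30, SD, n = 2).

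Of the 4 vitamin D genes, 3 had a summit at the first TSS, against 26.1% of protein-coding genes. The exact 95% interval of the share (19.4% to 99.4%) held that value. It covers counting error only, over genes picked by role, and is no test. The same limit holds for the intervals of the gene lists below. Cyp24a1, which inactivates the hormone, had one 306 bp upstream, inside an intron of the neighbouring gene Pfdn4, with a pooled signal of 78.6 (36.3 and 41.2; 38.8 ± 3.46, SD, n = 2). It was also the member with most sites nearby, and the strongest of them reached 338.8. Cyp2r1, which makes the storage form of vitamin D, had one in an intron 304 bp downstream of its first TSS, with 69.2 (28.4 and 40.6), and 2 summits within 50 kb, fewer than the median of all genes. Cyp27a1, a mitochondrial sterol hydroxylase that also acts on bile acid precursors, had one 367 bp upstream with 29.6 (15.3 ± 6.68, SD, n = 2), without a CTCF motif. Cyp27b1, which makes active calcitriol, had none within 1 kb. Its nearest summit was 1714 bp from its first TSS with 61.3 (33.8 and 26.1), and 8 lay within 50 kb, up to 320.7.

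Of 6 genes for steroid hormone synthesis, 3 had a summit at some TSS, against 33.4% of protein-coding genes, within the exact 95% interval of the share (11.8% to 88.2%). Cyp17a1, needed for androgens, had one of 205.8 (101.6 and 103.0; 102.3 ± 1.03, SD, n = 2) in an intron, 424 bp from a later TSS and 2305 bp from the first. Cyp19a1, the aromatase that makes oestrogens, uses several promoters. Its summit of 117.8 (57.2 and 61.6; 59.4 ± 3.11, SD, n = 2) lay in an annotated exon, 610 bp from one of 5 transcript starts and 86646 bp from the first. Cyp21a1, the adrenal hydroxylase of glucocorticoid and mineralocorticoid synthesis, had one 836 bp upstream with 49.9 (27.9 and 23.1), in repeat sequence. The promoter summit of Cyp24a1, above, and the strongest one of Cyp2w1, below, also lay in repeat sequence. Cyp11a1, which makes pregnenolone from cholesterol, had none at a TSS and 7 within 50 kb. Cyp11b1 and Cyp11b2, which make corticosterone and aldosterone, had none at a TSS and 2 each within 50 kb, and no site lay inside the 22.2 kb of the pair.

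Among 6 genes of bile acid and cholesterol metabolism, Cyp27a1 and Cyp46a1 had a summit at the first TSS (33.3%), near the 26.1% of protein-coding genes. Cyp46a1, which clears cholesterol from brain, had one 373 bp upstream with 35.7 (18.4 and 15.9). Cyp7a1 (the rate-limiting enzyme of bile acid synthesis), Cyp7b1, Cyp8b1 (which sets the share of cholic acid) and Cyp39a1 had none at any TSS. They had 3, 3, 4 and 10 summits within 50 kb. Cyp7b1, Cyp7a1 and Cyp8b1 are single genes, and their nearest summits were 84710, 17562 and 12492 bp from the first TSS.

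In family 1, whose genes are targets of the aryl hydrocarbon receptor, the strongest promoter site was at Cyp1b1. It lay 692 bp upstream of the first TSS with 228.4 (124.6 and 111.0; 117.8 ± 9.64, SD, n = 2). Cyp1a1 had a summit of 22.4 in an intron 358 bp downstream of its first TSS, with 5.27 in replicate 1 and 14.6 in replicate 2. The 2 values were far apart relative to their mean (9.91 ± 6.57, SD, n = 2). Cyp1a2, its neighbour, had none at a TSS and 9 within 50 kb. The pair lay between sites of 143.5 and 222.6 whose motifs pointed towards them.

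The strongest promoter site of all members was at Cyp2w1, a single gene. It lay in an intron, 850 bp past a later TSS, with 333.8 (179.6 and 154.3; 166.9 ± 17.9, SD, n = 2), above 97.8% of optimal peaks. A second site in the same gene had 36.8. Cyp2u1, a fatty acid hydroxylase, had one in coding sequence, 135 bp past its first TSS, with 57.8 (38.5 and 20.2). Of the clustered genes, Cyp4f37 had the strongest, 268.4 (141.0 and 124.6; 132.8 ± 11.6, SD, n = 2), in an untranslated exon 542 bp from a later TSS and 13935 bp from the first. Besides Cyp26a1 and Cyp1a1, described above, the remaining clustered genes with one were Cyp2b19 with 76.5 (29.98 and 44.92), Cyp2b10, the phenobarbital-inducible gene, with 38.2 (18.8 and 17.3), and Cyp4f13 with 17.7 (11.7 and 6.77), which had no motif. In that order, the summits lay 726, 738 and 736 bp from a later TSS and 10139, 19884 and 22644 bp from the first. Those of Cyp4f13 and Cyp4f37 were near the 3′ ends of genes of 22715 and 14876 bp. Such sites count as promoter sites here only through a later annotated start inside the gene.

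**Figure D3:**
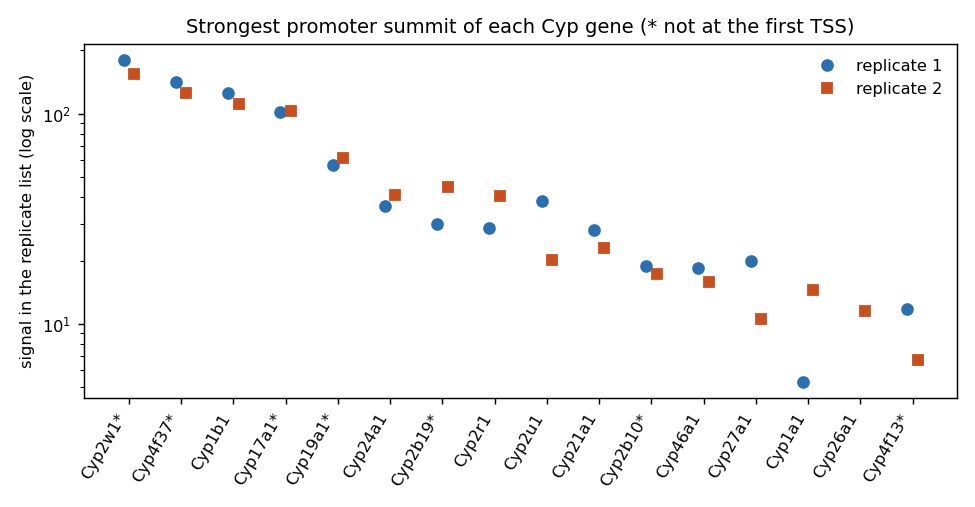
Signal in the list of replicate 1 (circles) and replicate 2 (squares), on a log axis, at the strongest promoter summit of each of the 16 Cyp genes that have one, in order of pooled signal. An asterisk marks a summit that is not at the first TSS; Cyp26a1 has no replicate 1 point, and Cyp1a1 shows the widest gap, 5.27 against 14.6.

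The 5 strongest promoter sites, with 3 others at first TSSs, are shown to compare their sequences. Each stretch is 30 bases of mm10, 5′ to 3′ on the strand of its best match to a CTCF matrix built from strong peaks of this data set, and capitals mark the 20 bases of that match.
Cyp2w1 (chr5:139355408-139355437, reverse strand): gccccTGGCCACAAGAGGGCACCAGgccag
Cyp4f37 (chr17:32635229-32635258, forward strand): acagaACGCCAGCAGGGGGCGCTAGagggc
Cyp1b1 (chr17:79715725-79715754, reverse strand): acgcgTGTCCAGCAGGTGGCAGAGTtcctg
Cyp17a1 (chr19:46670854-46670883, forward strand): gctgaTGGCCACTTGATGGCAGCAGccgct
Cyp19a1 (chr9:54181457-54181486, forward strand): ccataTGGCCCTTAGAGGGCGCTGTcatcc
Cyp1a1 (chr9:57688253-57688282, forward strand): cacggGGGCCAGAAGGGGGCATCAAattcc
Cyp24a1 (chr2:170497432-170497461, reverse strand): ggctgCAACCTGCAGGAGGAGGGAGaggag
Cyp2u1 (chr3:131303040-131303069, reverse strand): acgtgCGGGCGACAGGAGGCGCGCTgctac
The matrix score (log2 odds) was 25.4 at Cyp2w1, 24.5 at Cyp4f37, 21.3 at Cyp1b1, 19.5 at Cyp17a1, 14.8 at Cyp19a1 and 16.7 at Cyp1a1. It was 9.47 at Cyp24a1 and 8.003 at Cyp2u1. A score of 7.41 was reached by 5% of windows 1 kb away from peaks and was the threshold for a motif. The median score over all optimal peaks was 15.5. Cyp1a1 thus combined a score close to that median with a low signal. Of the peaks within 50 kb of a Cyp gene, 87.7% had a motif, against 84.0% of all optimal peaks, and their median signal was 75.8 against 58.4. Near clustered genes the motif share was 86.1% and the median signal 68.0, and near single genes 88.7% and 81.9. Near clustered genes the motif share was thus close to that of all peaks, the lower quartile of signal was 27.7 against 29.8, and 92.4% of the peaks were in both replicate lists against 97.5%.

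Most clustered genes lay in long stretches without an optimal summit. The 16 clusters spanned 3850.5 kb and held 37 summits, or 9.61 per Mb, against 18.9 per Mb over the main chromosomes. In 7 clusters there was none, and of 52 pairs of neighbouring members 11 had a summit between them. Matches to the CTCF matrix at or above the median peak score were also sparser in the clusters, with 17.1 per Mb against 22.2. The cutoff comes from the peaks themselves, so summits with a high score count as matches too. Fewer summits therefore bring fewer matches in part by construction. Of the 66 matches inside clusters, 24 (36.4%) had a summit within 50 bp, against 43.5% over the genome. Across the 16 clusters, summits per Mb and matches per Mb had a Spearman rho of 0.73. It is given as a description without a test, since short clusters weigh as much as long ones and bound matches enter both densities. The part of motif density in the scarcity of sites was not tested.

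Intervals of at least 200 kb between consecutive optimal summits were examined for whole members, a limit chosen after the data were seen. There were 8 such intervals, together 4979.4 kb, and they held 40 of 92 Cyp genes (43.5%), against 14.8% of protein-coding genes. Of the 40 genes 37 were clustered (54.4% of clustered genes), and 3 were single (12.5% of single genes). The median interval between consecutive summits was 18.1 kb over 49939 intervals. The longest interval with Cyp genes held the 13 genes from Cyp2c55 to Cyp2c50, of a subfamily whose enzymes act on drugs and arachidonic acid. It measured 1198.5 kb and was longer than 99.8% of intervals. The 6 genes from Cyp3a57 to Cyp3a59 lay in 913.3 kb that held 9 coding genes, the others being Zscan25, Cyp3a41a and Cyp3a41b. The 4 genes from Cyp2b13 to Cyp2b23 lay in 750.7 kb, also with 9 coding genes. The others there were Vmn1r184, Vmn1r185, Nlrp4a, Nlrp9a and Nlrp9c, none of them a Cyp gene. The 7 genes from Cyp4x1 to Cyp4b1, whose Cyp4a members hydroxylate fatty acids, lay in 608.2 kb. Shorter intervals held Cyp2g1 to Cyp2a12 (349.7 kb, 4 genes), Cyp2d9 to Cyp2d34 (290.0 kb, 3 genes) and Cyp2j11 to Cyp2j8 (251.8 kb, 2 genes). Cyp2e1, which oxidises ethanol, was a single gene in 617.3 kb that also held 20 other coding genes, most of them olfactory receptors.

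**Figure D4:**
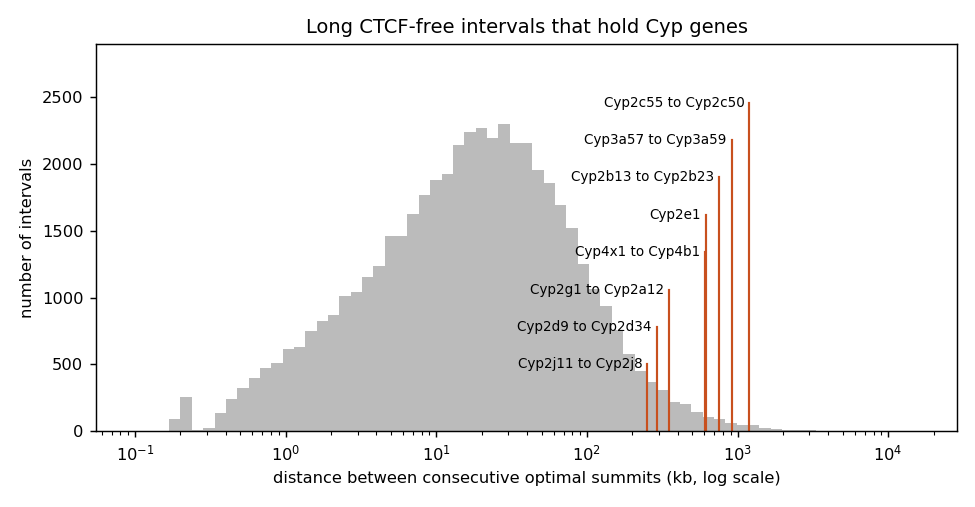
Number of intervals (vertical axis) by the distance between consecutive optimal summits (horizontal axis, log scale) over the main chromosomes. Lines mark the 8 intervals of at least 200 kb that hold whole Cyp genes, and their heights serve only to separate the labels; the intervals run from 251.8 to 1198.5 kb, against a median of 18.1 kb over all intervals.

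The intervals hold no optimal summit by construction, so they were set beside the other 2211 intervals of at least 200 kb, chosen in the same way, and not beside the genome. The full replicate lists, fixed at 300000 peaks each, held 23.3 (replicate 1) and 26.9 (replicate 2) weak summits per Mb in the intervals with Cyp genes, against 48.3 and 47.7 in the others. Of the replicate 1 summits in the intervals with Cyp genes, 6.90% had one of replicate 2 within 100 bp, against 11.7% in the others. Matches to the CTCF matrix were not sparser there, with 10.4 per Mb against 6.95. Soft-masked repeats made up 53.0% of the intervals with Cyp genes (43.9% to 60.2% of each), against 41.0% of the others, and GC content was 41.0% against 39.0%. In the intervals with Cyp genes, between 7.36% and 27.0% of positions carried a 36-base word that recurs within the interval. This value was not computed for the other intervals, so whether it is high is not known here. These are descriptions of 8 intervals without a test. Reads from near-identical copies can be lost in alignment, and their treatment was not stated in the labels or deposited notes. The part of repeats and duplicated sequence in the lack of weak and optimal summits was not tested.

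The motifs at the ends of the intervals were compared by strand. With a motif at both ends in 6 intervals, 4 pairs were convergent and 2 tandem. Over the 1622 intervals of at least 200 kb with motifs at both ends, 33.8% were convergent, 51.6% tandem and 14.6% divergent. The convergent intervals were Cyp2j11 to Cyp2j8, Cyp4x1 to Cyp4b1, Cyp3a57 to Cyp3a59 and Cyp2g1 to Cyp2a12. Both ends of the last had low scores (9.32 and 7.75), and at a score of 12.8, reached by 1% of flanking windows, 4 intervals kept a motif at both ends, 3 convergent and 1 tandem. The Cyp4x1 to Cyp4b1 interval ran from a site of 298.3 (159.9 and 136.9) to one of 167.3 (77.9 and 88.0), both between genes, and the Cyp3a interval from one of 98.6 (38.67 and 60.03) in an intron of Zfp655 to one of 28.2 (17.2 and 12.2). The left end of the Cyp2c interval was a forward-strand site of 207.0 (104.5 and 103.2; 103.9 ± 0.956, SD, n = 2) in an intron of the pseudogene Cyp2c52-ps. Its right end was a weak summit of 23.4 (13.4 and 8.58) without a motif, in an intron of Cyp2c70. The next site beyond, in an intron of Pdlim1, had 200.1 (99.4 ± 0.871, SD, n = 2) and a motif on the reverse strand.
Cyp4x1 to Cyp4b1, left end (chr4:115101793-115101822, forward strand): tatagTGGCCACTAGATGGCCACACcgtgc
Cyp4x1 to Cyp4b1, right end (chr4:115709993-115710022, reverse strand): tccttTGGCCAGCAGAGGGAAGCACtgaaa
Cyp2c55 to Cyp2c50, left end (chr19:38982156-38982185, forward strand): acagcCATCCACTAGAGGGCGGGCTttgac
These 3 stretches are shown because they carry the strongest ends of intervals that hold the Cyp4a and Cyp2c genes, with capitals as above.

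**Figure D5:**
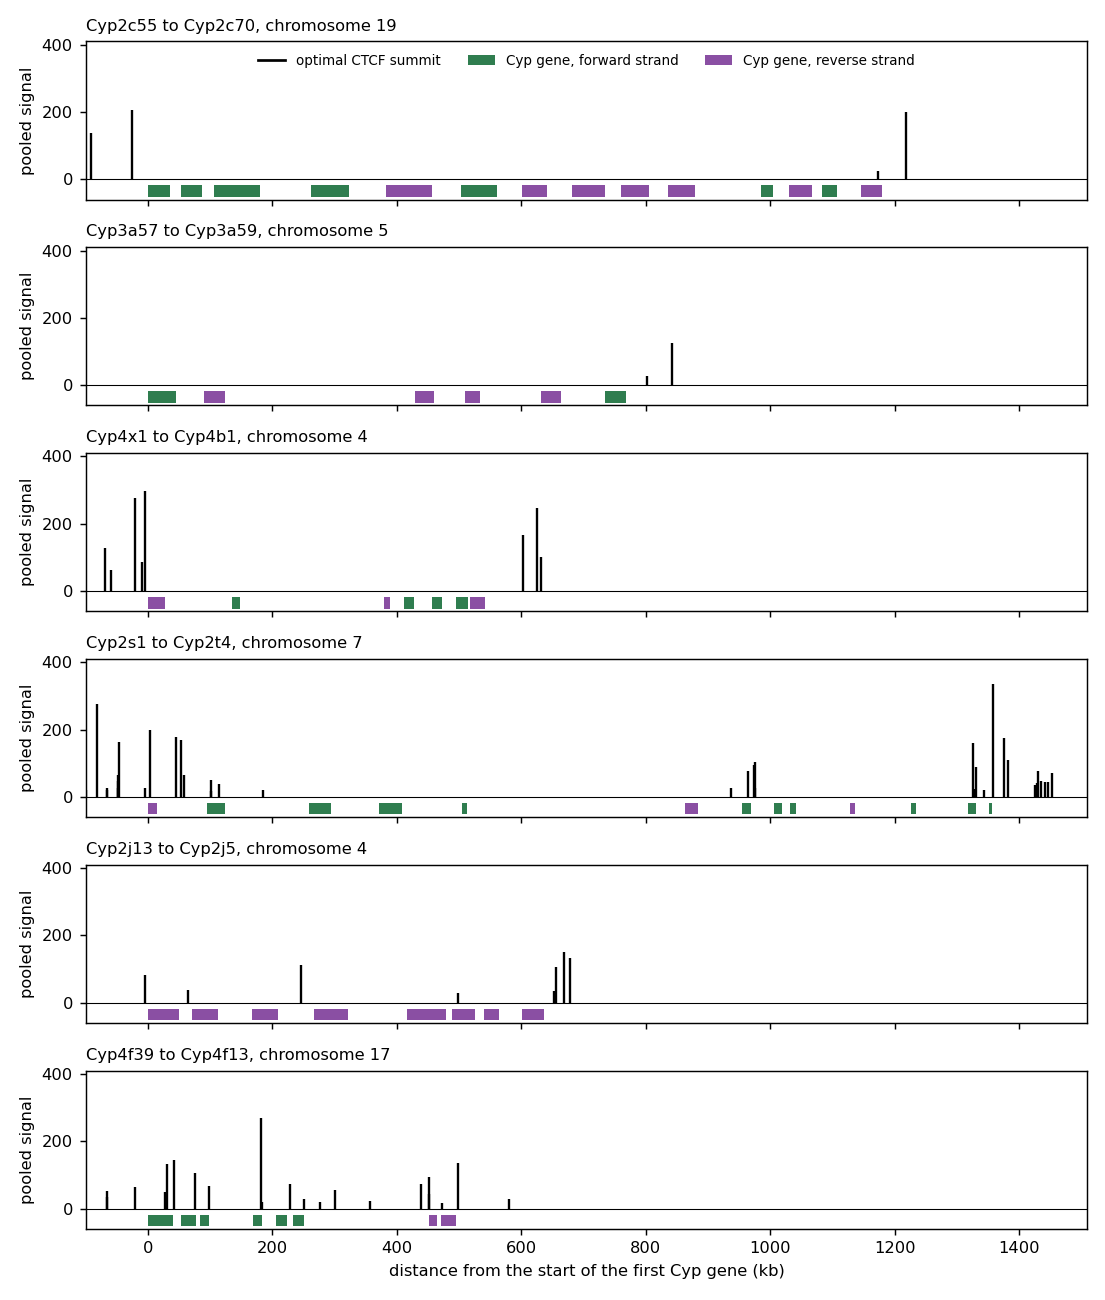
Pooled signal of optimal CTCF summits (vertical lines) along 6 Cyp loci, with distance from the start of the first Cyp gene in kb on the horizontal axis and Cyp genes as bars below, coloured by strand. No line stands between Cyp2c55 and Cyp2c50, Cyp3a57 and Cyp3a59, or Cyp4x1 and Cyp4b1, whereas sites are spread through the Cyp4f genes.

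Other clusters held CTCF sites among their genes, at densities that differed widely. The Cyp4f genes, fatty acid and leukotriene hydroxylases on chromosome 17, had the highest density among the clusters of 3 or more members. Cyp4f39 to Cyp4f15 held 9 summits in 250.6 kb (35.9 per Mb), 3 of 5 spacings between neighbours had one, and motif matches came to 43.9 per Mb. The sites included 145.7 between Cyp4f39 and Cyp4f17, 106.6 in an untranslated exon of Cyp4f17, and 68.0 in that of Cyp4f16. The pair Cyp4f14 and Cyp4f13 held 2 more. In Cyp2d22 to Cyp2d34 (3.99 summits per Mb), whose enzymes act on many drugs in liver, 1 site of 169.2 (92.7 and 76.7) separated Cyp2d10 from Cyp2d9. Counting that site, Cyp2d22 and Cyp2d11 before it had 5 summits within 50 kb and Cyp2d10 had 3. Of the genes after it, Cyp2d9 had that site alone, and Cyp2d12 and Cyp2d34 had none. Cyp2j13 to Cyp2j5, a row of 8 epoxygenase genes on 1 strand, held 3 summits in 636.6 kb (4.71 per Mb). They lay between Cyp2j13 and Cyp2j12 (37.9), between Cyp2j7 and Cyp2j11 (111.0), and in coding sequence of Cyp2j6 (29.9). The Cyp2d and Cyp2j densities were below the 9.61 per Mb over all clusters, and both loci also held a long interval listed above.

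On chromosome 7, the Cyp2s1, Cyp2b, Cyp2a, Cyp2f2 and Cyp2t4 genes alternated between dense and empty stretches. Cyp2s1 to Cyp2b10 held 7 summits in 124.2 kb, up to 197.8 in an exon of Cyp2s1. Cyp2b13 to Cyp2a4 held none in 253.6 kb. Cyp2b23 to Cyp2t4 held 9, which lay in 2 groups, one between Cyp2b23 and Cyp2g1 and one at Cyp2f2 and Cyp2t4. A site of 335.0 (166.1 and 166.2) in an intron of Egln2 stood 1.33 kb past Cyp2t4. The Cyp2a5, Cyp2a22 and Cyp2a12 genes, between those groups, had none within 50 kb.

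Duplicated copies of 1 CTCF site in the Cyp2b genes differed in whether they had a peak. The comparison was chosen after the data were seen. Within the locus, 9 stretches of 50 bases matched the site in Cyp2b19 with at most 14 mismatches, of which 8 had a motif, 5 the identical 20-base match, and 4 an optimal peak. They are shown in part because the sequence is alike and the signal is not, with capitals as above.
Cyp2b19, peak (chr7:26767257-26767306, forward strand): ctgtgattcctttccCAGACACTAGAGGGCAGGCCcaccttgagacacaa
Cyp2b10, peak (chr7:25917441-25917490, forward strand): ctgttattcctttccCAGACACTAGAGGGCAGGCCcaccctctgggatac
Cyp2b13, no peak (chr7:26088754-26088803, forward strand): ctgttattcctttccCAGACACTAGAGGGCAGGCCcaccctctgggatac
Cyp2b9, no peak (chr7:26201244-26201293, forward strand): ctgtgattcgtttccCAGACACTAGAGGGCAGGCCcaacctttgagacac
Cyp2b23, no peak (chr7:26672664-26672713, reverse strand): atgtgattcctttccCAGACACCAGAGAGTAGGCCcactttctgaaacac
The copies in Cyp2b10 and Cyp2b13 are the same over the 50 bases shown and over an exact run of 94 bp around them. The first had a pooled signal of 38.2, with 18.8 in the replicate 1 list and 17.3 in that of replicate 2. The second had no optimal peak, a weak summit of 4.95 in the replicate 1 list and none in that of replicate 2. The copy in Cyp2b9 had weak summits in both lists (6.31 and 5.41). The copy in Cyp2b23 scored 5.36, below the motif threshold, and had no summit in either list. The remaining peaks were 19.99 at a copy 61.9 kb past Cyp2b10 and 26.8 at one in Gm45034. A read that lies wholly inside such a run cannot be assigned to 1 copy. Neither read length nor the treatment of multiply mapping reads was stated in the labels or deposited notes, and their part in these differences was not tested. In the Cyp4f genes a duplicated site kept a peak in both copies: Cyp4f17 (106.6) and Cyp4f16 (68.0) share the 20-base match and 96% of 50 bases.

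Clustered and single Cyp genes also differed in the base composition of their promoters, measured from 250 bases before to 50 after the first TSS. The ratio of observed to expected CpG was at least 0.6 at 1 of 68 clustered and 8 of 24 single genes, against 44.4% of protein-coding genes. Of the 9 Cyp genes with such a promoter, 6 had a summit at the first TSS: Cyp1b1, Cyp24a1, Cyp26a1, Cyp2r1, Cyp2u1 and Cyp46a1. The other 3 were Cyp20a1, Cyp39a1 and Cyp4v3. Of the 83 with a lower ratio, 3 had one (3.61%). Over all protein-coding genes the shares were 40.4% and 14.6%. CpG content thus moved with the summits at first TSSs, and its part was not tested. The ratio was computed after the data were seen.

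For genes that serve the P450 enzymes, the lists were too small to tell the share with a summit at some TSS from that of all protein-coding genes (33.4%). Of 6 partner genes that supply electrons, 3 had one (exact 95% interval 11.8% to 88.2%): Por, the reductase of microsomal P450 enzymes, with 22.1 (10.1 and 11.4), Cyb5r3 with 63.0 (43.9 and 19.7) and Fdxr, the reductase of the mitochondrial chain, with 30.3 (16.4 and 10.4). Of 16 receptor and regulator genes, 6 had one (37.5%, interval 15.2% to 64.6%). They were Nr1h3 (223.3), Ahrr, the repressor of the aryl hydrocarbon receptor (120.6), Nr1i2, the pregnane X receptor (46.9), Rxra (38.2), Rarg, a retinoic acid receptor (23.8), and Ppara (17.0, with no summit in the replicate 1 list). Each of the 22 genes had a summit within 50 kb, as did 86.0% of protein-coding genes. As other families with many tandem copies, 106 genes of the Ugt, Sult, Gst, Ces, Fmo and Nat families had a summit at any TSS in 17.0% and none within 50 kb in 28.3%. For 110 keratin and keratin-associated genes the shares were 1.82% and 14.5%. All 92 Cyp genes, at 17.4% and 34.8%, were thus close to the other drug metabolism families. Those families were not split by arrangement. The median number of annotated starts per gene was 6 for the receptor list, 2 for the other drug metabolism families and 1 for keratins, against 3 over all genes. Shares at any TSS are therefore not fully alike in basis.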

How the data were processed

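Peak lists of CTCF ChIP-seq on 2 limb libraries of 1 group were used. The deposited signal of each peak is never negative, with a scale that no label or header explains. Per the notes deposited with the libraries, the optimal and conservative lists (49970 and 48829 peaks) were derived from both replicate lists and a pooled list and are called IDR thresholded (irreproducible discovery rate). No label or deposited note used here names the aligner, the peak caller or its thresholds, and the labels list a possible control experiment without saying whether it was used. Read depth is unknown, so no interval on a signal is given.

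Summits were compared with GENCODE M21 genes on mm10 with python 3.11.15, numpy 2.4.6, pandas 2.3.3 and scipy 1.17.1. A replicate's signal at a peak is that of the nearest summit within 100 bp in its list. Shares of genes in the plot, and some in the text, carry exact 95% Clopper-Pearson intervals. These cover counting error only and treat genes as independent, which neighbouring genes are not. The CTCF matrix of 20 positions was refined in 10 rounds on 1000 strong training peaks (the highest signals on autosomes with odd numbers) and searched within 50 bp of each summit. Counting, clustering and motif steps were tested on simulated data. With 1 group, no test between groups was made.

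The members and gene lists were chosen with earlier results of these data known. Named genes are those with a promoter summit, those with most or no summits nearby, the ends of clusters, genes beside a summit inside a cluster, the role lists, and partner or receptor genes with a promoter summit; not every gene the rule takes is printed. By the rule for members, 1 gene is not reported here. Alternatives varied the list, the strongest 50% of peaks, each replicate alone (its 49970 strongest peaks), the symbol rule, the promoter, window and cluster distances, and the motif score.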

Additional observations from a re-analysis of the deposited data

How the results depend on the processing

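Clustered Cyp genes had a lower share with a summit at any TSS and a lower median within 50 kb than single genes in each of the 9 alternatives that vary the share and the 9 that vary the median. With the conservative list, the share of Cyp genes with a summit at any TSS was 14.1% and that of clustered genes 4.41%. With the strongest 50% of optimal peaks, the shares were 3.26% (first TSS), 8.70% (any TSS), 2.94% (clustered) and 25% (single), the medians within 50 kb 1.0, 0.0 and 2.5 for all, clustered and single members, and the medians per 100 kb 0.0 (clustered) and 1.91 (single). With promoters of 500 bp, the shares at any TSS were 8.70%, 2.94% (clustered) and 25% (single). With 5 kb they were 25%, 16.2% and 50%, and 16.3% at the first TSS. With windows of 25 kb, the medians were 1.0, 0.0 and 3.5 summits, and 0.0 and 4.62 per 100 kb. With 100 kb they were 4.5, 2.0 and 8.5, and 0.85 and 3.24. With a cluster distance of 50 kb, single genes had 28.2% at any TSS, a median of 3.0 and 2.35 per 100 kb, below the 33.4% and 3.30 of all protein-coding genes, and clustered genes 0.81 per 100 kb. With 250 kb, single genes had 45.5% and 4.27 per 100 kb. Adding 5 genes with a further letter gave clustered medians of 0.5 and 0.31 per 100 kb and 4.13 per 100 kb for single genes. The motif share near clustered genes was 69.6% at the score reached by 1% of flanks. At that score, chosen as an alternative for interval ends after seeing the data, 75% of pairs were convergent, against 66.7%. Leaving out either replicate gave 15.2% to 17.4% at any TSS, 5.88% to 7.35% for clustered and 41.7% to 45.8% for single genes, medians of 1.5 to 2.0 for all members and 4.5 for single ones, and 3.82 to 3.85 per 100 kb for single genes. Each setting changes which sites or genes are counted by its own construction. No paired analysis was possible because the series has 1 group. Depth sets which weak sites, such as those at Cyp26a1, can be seen, and it is unknown here.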

Other observations

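Single Cyp genes without a promoter site varied in the number of CTCF sites around them. Cyp4a29, which lay in the Cyp4x1 to Cyp4b1 interval with other Cyp4a genes, had none within 50 kb, and Cyp2e1 had 1. Cyp20a1 and Cyp4v3, which have CpG-rich promoters, had 2 summits each within 50 kb, with the strongest at 109.2 and 334.3. Cyp3a13, the 1 Cyp3a gene outside the Cyp3a arrays, had 6, up to 128.0, where 5 of the other 6 Cyp3a genes had none. Cyp2c23 likewise stood apart from the Cyp2c arrays and had 3, up to 276.0. Cyp4f18, the Cyp4f gene on chromosome 8, had 5, up to 97.1.

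One identical 20-base motif match, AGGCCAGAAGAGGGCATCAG, lay under 3 peaks near 2 members on different chromosomes, a pattern picked out after the data were seen. It was found at a summit inside Cyp39a1 (mm10 peak chr17:43701157-43701300) with a pooled signal of 138.7 (71.9 and 66.2; 69.1 ± 4.07, SD, n = 2). The other 2 were near Cyp24a1 (peaks chr2:170442605-170442880 and chr2:170520739-170520884), with 45.7 (15.9 and 28.3; 22.1 ± 8.78) and 59.2 (32.01 and 29.01; 30.5 ± 2.12). The capitals are the whole match, read on its forward strand. All 3 sites lay in soft-masked repeat sequence. The same bases thus stood under signals that differed more than the replicates did between Cyp39a1 and either site near Cyp24a1.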
